A study of Arabidopsis thaliana with 6 samples.

Results

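The 10 genes described here encode gibberellin oxidases of Arabidopsis thaliana, the enzymes that make the last steps of active gibberellin synthesis and those that inactivate the hormone. They were chosen by locus identifier from a table of 27628 loci, and each of the 10 was found once. They comprise 3 members of the GA20ox class (GA20OX1, GA20OX2 and GA20OX3), 4 of the GA3ox class (GA3OX1 to GA3OX4) and 3 of the GA2ox class (GA2OX1, GA2OX2 and GA2OX6). Siliques, the seed pods of the plant, gave the RNA for 3 wild-type (WT) libraries and 3 libraries labelled with the triple genotype shp1 shp2 mrpl1. All plants grew on sucrose-containing medium under long days. The labels used here give no silique age, ecotype, allele or mutated site, and nothing in them ties the samples of a group to separate plants. The p-values therefore rest on sample-to-sample spread that may be technical.

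Gibberellins are diterpenoid hormones that drive cell expansion, fruit growth and seed germination. GA20ox and GA3ox enzymes act in sequence to form the bioactive hormone, and GA2ox enzymes hydroxylate the active forms and their precursors into inactive products. The bioactive hormone binds GID1 receptors, which leads to the breakdown of the DELLA repressors. In Arabidopsis siliques gibberellin is made in the seeds and in the valve margin, where the SHP target IND is known to activate GA3OX1.

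The libraries held between 17857873 and 21603816 estimated counts. Of the genes in the labelled genotype, only SHP1 was called lower. The alleles are not given, so transcript counts do not test the genotype. SHP1 stood at 42.3, 37.5 and 43.5 CPM (counts scaled to a common library size with edgeR's TMM factors) in WT replicates 1 to 3 and at 26.9, 31.5 and 28.4 CPM in mutant-labelled replicates 1 to 3, whereas SHP2 and MRPL1 (AT2G42710, taken by its product name) were not called lower, with log2 fold changes of −0.01 and 0.24 (without both replicates numbered 1, MRPL1 was called higher, 0.30; edgeR adjusted p = 0.0228). SHP1 and SHP2 overlap genes on the other strand, and no source used here gives the strand setting. Directions below are therefore between libraries as labelled. Replicate 1 stood apart from its mates in both groups, with a chi-square per degree of freedom of 7.69 to 12.08 against 2.54 and 2.89 between the other pairs, and calls that change without both are given for the genes described. Such calls were common, as edgeR called 6492 genes over the whole table without both, against 1865 with all libraries. The libraries left out are those that differed most from their mates in these same data. Leaving them out narrows the spread within groups, so adjusted p-values from that fit are no independent support for a call. In bulk RNA of siliques, fewer cells of a type and less RNA per cell cannot be told apart.

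Of the 10 oxidase genes, 9 passed the expression filter and 2 were lower in the libraries labelled mutant, GA20OX2 and GA3OX1, with 0 higher (edgeR's quasi-likelihood test, Benjamini-Hochberg adjusted p under 0.05 over 20827 genes). Over all genes tested, 8.95% were called, 4.07% as lower and 4.89% as higher, and the 2 lower members made up 22.2% of the 9. The members were chosen with earlier results of these data known, so these shares do not test enrichment. DESeq2 called 1 lower, GA20OX2, and 0 higher (7.33% of genes called, 3.99% higher and 3.34% lower). Limma voom called the same 2 genes lower and GA3OX4 higher (19.8% of genes called, 10.3% higher and 9.54% lower). The median log2 fold change of the 9 was −0.16, against 0.00 (−0.0016) over all genes tested.

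The GA20ox class converts early gibberellin precursors to the substrates of GA3ox through successive oxidations at the same carbon. GA20OX2 (AT5G51810; TAIR10.1 chromosome 5, 21055179 to 21056881, minus strand, 3 exons) stood at 36.9, 38.1 and 36.1 CPM in WT replicates 1 to 3 and at 25.4, 22.9 and 24.5 CPM in mutant-labelled replicates 1 to 3. All 3 mutant-labelled libraries lay below all 3 WT libraries, and the spread within each group was small beside the gap. The means were 37.0 ± 0.996 and 24.3 ± 1.26 CPM (SD, n = 3 each), 0.655 times the WT level. The log2 fold change was −0.61 (SE 0.077, 95% interval −0.78 to −0.44; edgeR adjusted p = 0.00026).

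GA20OX3 (AT5G07200; chromosome 5, 2243553 to 2245339, minus strand, 3 exons), a form known for its expression in seeds, had the highest level of the 10, per length of transcript as well. It stood at 377, 370 and 364 CPM in WT, against 403, 378 and 386 CPM in the libraries labelled mutant. The groups just failed to overlap, with the highest WT library close to the lowest mutant-labelled one, and the difference was not called (log2 fold change 0.07, 95% interval −0.05 to 0.20; edgeR adjusted p = 0.532). Its interval does not meet that of GA20OX2 (−0.78 to −0.44). The ratio of GA20OX3 to GA20OX2 within a library, which no scaling factor affects, was 3.35, 3.28 and 3.33 in WT and 3.99, 4.04 and 3.98 in the libraries labelled mutant on the log2 scale.

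GA20OX1 (AT4G25420), which acts mainly in stem elongation and flowers, was near the lower limit of measurement at 0.829 to 1.26 CPM in WT, against 0.864 to 0.956 CPM in the libraries labelled mutant. The groups overlapped, and the 95% interval of the log2 fold change ran from −0.78 to 0.46 (edgeR adjusted p = 0.797). This interval is wide enough to include the GA20OX2 log2 fold change of −0.61.

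**Figure D1:**
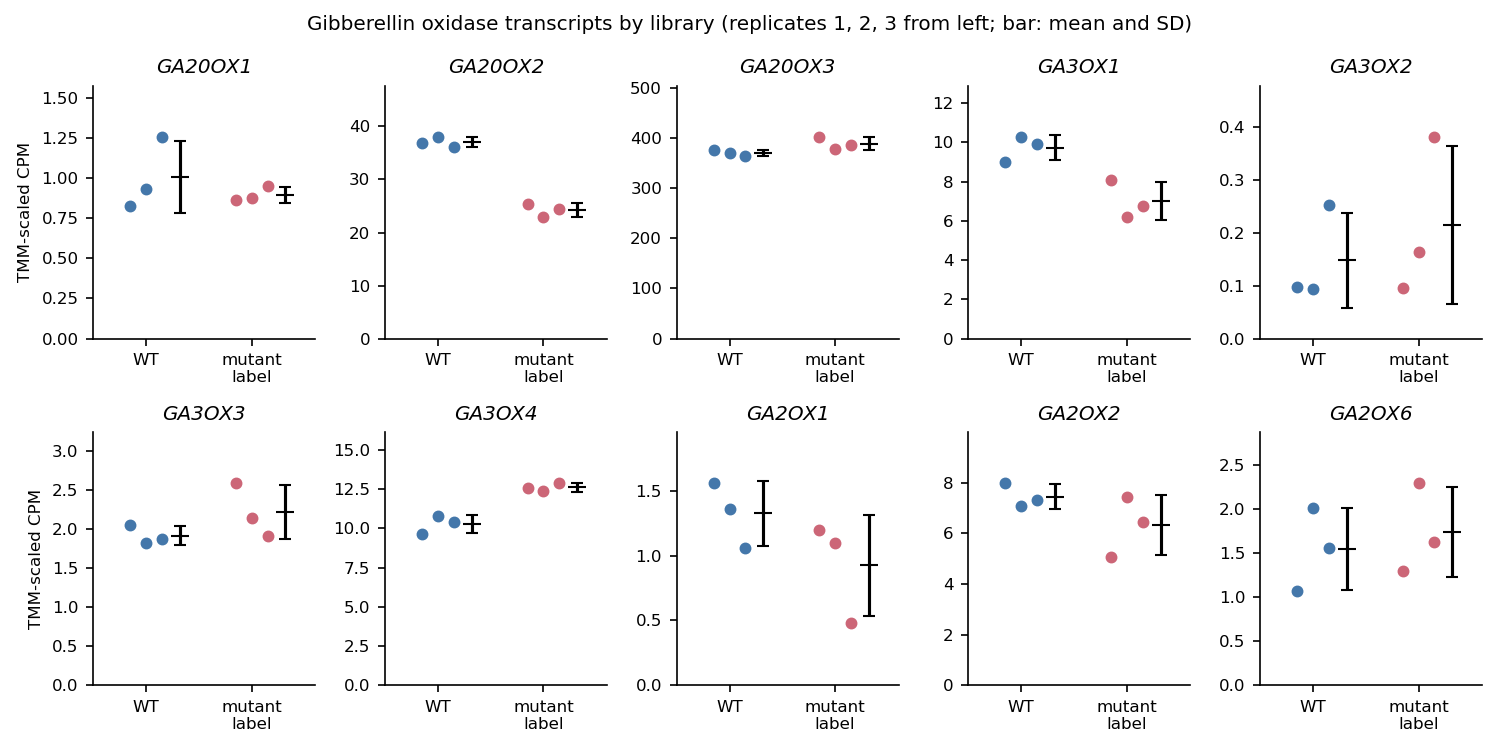
Level of each of the 10 oxidase genes in every library, as TMM-scaled CPM on linear axes that start at 0. Points are the 3 WT libraries (blue) and the 3 labelled shp1 shp2 mrpl1 (red), and the black bars are the mean and SD. GA20OX2 and GA3OX1 lie lower in every mutant-labelled library than in any WT library, GA3OX4 and GA20OX3 lie higher, and the groups overlap for the other 6 genes.

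The GA3ox class makes the final step to the bioactive hormone. GA3OX1 (AT1G15550; chromosome 1, 5344388 to 5346342, minus strand, 2 exons) is a main form of vegetative tissue that is also expressed in siliques. It stood at 9.02, 10.3 and 9.89 CPM in WT replicates 1 to 3 and at 8.06, 6.19 and 6.74 CPM in mutant-labelled replicates 1 to 3. The groups did not overlap, and the closest approach was between the replicates numbered 1. The mean fell from 9.74 ± 0.652 to 6.996 ± 0.961 CPM (SD, n = 3 each), 0.720 times the WT level, with a log2 fold change of −0.47 (SE 0.12; 95% interval −0.74 to −0.20; edgeR adjusted p = 0.0314). The call was lost in 6 of 15 alternative settings, among them the fits that left out WT replicate 2 or 3 or mutant-labelled replicate 2 or 3 (edgeR adjusted p = 0.109 to 0.139).

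GA3OX4 (AT1G80330; chromosome 1, 30198061 to 30199537, minus strand, 2 exons), a form known from siliques and developing seeds, had values on the other side of WT. It stood at 9.66, 10.8 and 10.4 CPM in WT, against 12.6, 12.4 and 12.9 CPM in the libraries labelled mutant. Every mutant-labelled library was above every WT library, but the difference did not pass the test over all genes (log2 fold change 0.29, SE 0.097; 95% interval 0.08 to 0.50; edgeR adjusted p = 0.085). Groups that do not overlap are common in this table, at 25.9% of all genes tested (13.7% higher and 12.3% lower), and were found for 4 of the 9 tested oxidase genes, GA20OX3 and GA3OX4 on the higher side and GA20OX2 and GA3OX1 on the lower.

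GA3OX1 and GA3OX4 had nearly equal counts in each WT library and unequal counts in the libraries labelled mutant. The log2 ratio of GA3OX4 to GA3OX1 counts was 0.10, 0.07 and 0.07 in WT replicates 1 to 3 and 0.64, 1.00 and 0.94 in mutant-labelled replicates 1 to 3, and the 95% intervals of the fold changes of the pair do not meet. This ratio is also free of library scaling, but not of a trend with transcript length. Over 20733 genes, shorter transcripts tended to be higher in the libraries labelled mutant (Spearman rho −0.252). GA3OX4 is the shorter of the pair (1068 and 1522 bases). After the correction for transcript length the log2 fold changes were 0.23 for GA3OX4 and −0.48 for GA3OX1. No 50-base window of either transcript occurred in another annotated transcript, and the same held for the other 8 oxidase genes. GA3OX4 overlaps its neighbour AT1G80325 by 11 bases on the same strand.

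The other GA3ox genes were low. GA3OX3 (AT4G21690), known from flowers, lay between 1.83 and 2.05 CPM in WT and between 1.91 and 2.59 CPM in the libraries labelled mutant (log2 fold change 0.21, 95% interval −0.23 to 0.65; edgeR adjusted p = 0.605). GA3OX2 (AT1G80340), which acts with GA3OX1 in germinating seeds and roots and lies beside GA3OX4 on the chromosome, had 2, 2 and 5 counts in WT and 2, 3 and 8 counts in the libraries labelled mutant. It did not pass the filter and was not tested.

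The GA2ox class removes gibberellin from the active pool by an irreversible hydroxylation. GA2OX2 (AT1G30040; chromosome 1, 10537457 to 10540044, plus strand, 3 exons) is known for limiting seed germination in the dark. It lay at 8.00, 7.07 and 7.32 CPM in WT, against 5.08, 7.45 and 6.45 CPM in the libraries labelled mutant. Mutant-labelled replicate 2 lay among the WT libraries and replicates 1 and 3 lay below them. The log2 fold change of −0.24 was not called (95% interval −0.56 to 0.07; edgeR adjusted p = 0.364).

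GA2OX1 (AT1G78440) lay between 1.06 and 1.56 CPM in WT and between 0.478 and 1.199 CPM in the libraries labelled mutant, the lowest value being that of replicate 3 (log2 fold change −0.53, 95% interval −1.25 to 0.19; edgeR adjusted p = 0.393). GA2OX6 (AT1G02400), a target of the embryo factor AGL15, lay between 1.07 and 2.01 CPM in WT and between 1.29 and 2.30 CPM in the libraries labelled mutant (log2 fold change 0.15, 95% interval −0.47 to 0.77; edgeR adjusted p = 0.815). The groups overlapped for both genes, and 0 of the 3 GA2ox genes were called by edgeR, DESeq2 or limma voom. At an unadjusted p under 0.05, edgeR counted 3 of the 9 tested oxidase genes, namely GA20OX2, GA3OX1 and GA3OX4, and no GA2ox gene. The share of all genes at this unadjusted threshold is not given, here or for the lists below. Counts at that threshold therefore have no background to be read against.

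Levels were compared between genes as CPM per kb of transcript. In WT the order of mean levels was GA20OX3 (230.5), GA20OX2 (25.0), GA3OX4 (9.63), GA3OX1 (6.399), GA2OX2 (4.12), GA3OX3 (1.82), GA2OX6 (1.10), GA2OX1 (1.01), GA20OX1 (0.700) and GA3OX2 (0.101). The ranges over the 3 libraries of GA2OX6, GA2OX1 and GA20OX1 overlapped from neighbour to neighbour, and all other neighbours were apart. The mutant-labelled libraries gave the same order, with GA20OX3 at 242, GA20OX2 at 16.4, GA3OX4 at 11.8 and GA3OX1 at 4.60 CPM per kb. There the ranges of GA3OX1 and GA2OX2 overlapped (4.07 to 5.29 and 2.81 to 4.11), as did those of GA2OX1 and GA20OX1. The reference models of GA3OX3 and GA3OX4 have the coding part only (1050 and 1068 bases), so their levels per kb are less certain than those of the other genes.

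The class sums were close between the groups, and the makeup of the GA20ox and GA3ox sums differed. The summed level of the 3 GA20ox genes was 256 ± 4.29 CPM per kb in WT and 259 ± 8.84 in the libraries labelled mutant (SD, n = 3 each), and GA20OX2 supplied 9.57% to 10.01% of it in WT and 6.15% to 6.43% in the libraries labelled mutant. The 4 GA3ox genes summed to 17.96 ± 0.878 and 18.7 ± 0.902 CPM per kb. GA3OX1 supplied 34.9% to 36.2% of that sum in WT and 22.8% to 27.0% in the libraries labelled mutant, and GA3OX4 supplied 53.2% to 54.2% and 60.0% to 65.1%. The 3 GA2ox genes summed to 6.23 ± 0.236 and 5.43 ± 1.01 CPM per kb, with mutant-labelled replicate 2 at 6.57, above all WT libraries, and replicates 1 and 3 at 4.64 and 5.07, below them. The ranges of the groups overlapped for all 3 sums.

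**Figure D2:**
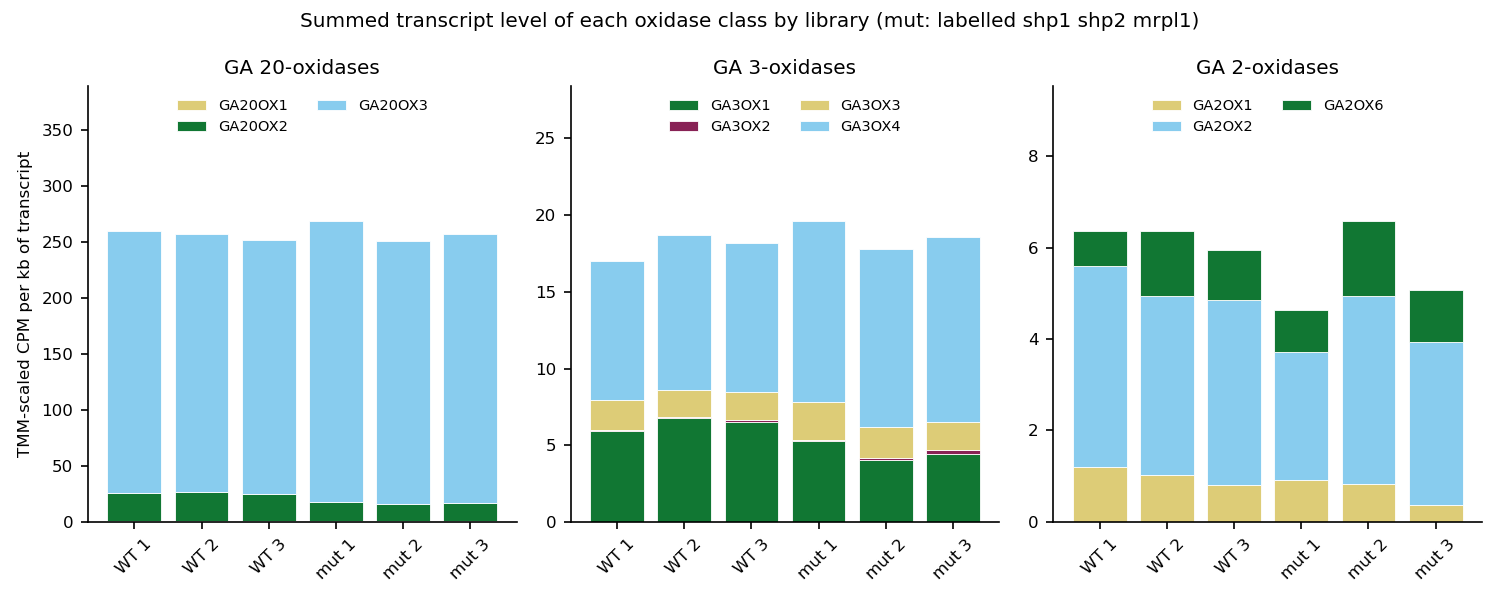
Stacked bars of CPM per kb of transcript in each of the 6 libraries for the 3 GA20ox, 4 GA3ox and 3 GA2ox genes, on linear axes from 0 that differ between panels. The GA20ox and GA3ox sums are level across the libraries while GA20OX2 and GA3OX1, both dark green, take a smaller part in the 3 mutant-labelled libraries.

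The stretches of 250 bases before the annotated gene start of GA20OX2, GA3OX4 and GA3OX1, the genes that separated the groups most clearly, are shown because proteins of the seed maturation network and of the valve margin are known to act on gibberellin genes through short DNA motifs. Capitals mark the RY core CATGCA on either strand, the element bound by B3 factors such as FUS3. The sequences are from RefSeq, TAIR10.1, all read 5′ to 3′ on the minus strand, at chr5:21056882-21057131, chr1:30199538-30199787 and chr1:5346343-5346592.
GA20OX2: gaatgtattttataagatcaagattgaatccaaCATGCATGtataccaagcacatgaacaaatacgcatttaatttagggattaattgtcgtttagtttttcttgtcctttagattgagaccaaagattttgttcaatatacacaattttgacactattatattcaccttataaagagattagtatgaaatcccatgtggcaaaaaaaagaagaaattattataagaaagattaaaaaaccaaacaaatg
GA3OX4: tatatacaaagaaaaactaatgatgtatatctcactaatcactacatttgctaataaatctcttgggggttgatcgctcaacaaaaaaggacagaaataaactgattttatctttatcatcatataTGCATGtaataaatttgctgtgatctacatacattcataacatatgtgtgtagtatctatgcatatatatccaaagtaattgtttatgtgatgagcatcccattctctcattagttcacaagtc
GA3OX1: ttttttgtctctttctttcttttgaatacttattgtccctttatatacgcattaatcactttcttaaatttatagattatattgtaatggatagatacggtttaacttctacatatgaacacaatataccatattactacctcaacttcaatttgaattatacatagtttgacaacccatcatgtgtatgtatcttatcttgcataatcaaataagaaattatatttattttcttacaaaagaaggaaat

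The RY core occurred in the GA20OX2 window as 2 overlapping matches on opposite strands, 217 and 215 bases before the start, and in the GA3OX4 window as 1 match at 124 bases, where the annotated start is the start codon. The GA3OX1 window had 0. Among the other oxidase genes GA2OX6 had 2 overlapping matches, at 189 and 187 bases, and the remaining 6 had 0. Of the 27419 windows of this length in the reference, 8.43% held the motif. The G-box CACGTG, searched on both strands and held by 6.48% of windows, was in 0 of the 10. The E-box CANNTG, which includes the G-box and can be bound by bHLH proteins, was in 55.3% of all windows, and in 8 of the 10. It had 3 matches for GA20OX2, 2 each for GA3OX1, GA3OX3 and GA3OX4, and 1 each for GA20OX1, GA20OX3, GA2OX2 and GA2OX6. Of the 3 genes whose windows held the RY core, GA20OX2 was lower and GA3OX4 and GA2OX6 were not called.

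A list of 49 other gibberellin genes covered other parts of the pathway. Of these, 45 passed the filter, 2 were higher and 5 lower, 15.6% against 8.95% of all genes. The lists were chosen with earlier results of these data known. Shares set against all genes, here and for each list below, therefore do not test enrichment. The median log2 fold change was 0.00 (0.0020), against −0.0016 over all genes tested. The 7 calls fell in transport, responsive genes and regulators, with none in synthesis before the oxidases, the remaining oxidases, other inactivation, receptors or signalling. Without both replicates numbered 1, edgeR calls over the whole table rose from 1865 to 6492 (3191 higher and 3301 lower). In that fit 20 of the 49 were called, 11 higher and 9 lower. These were the 7 and 13 more, 9 of them higher (GA3, KAO1, GAMT1, GID1A, RGL1, RGL3, PRE1, IND and GAF1) and 4 lower (GA2, GA20OX5, SEC and KNAT1).

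Upstream of the oxidases, 0 of 5 genes were called by edgeR (2 higher and 1 lower at an unadjusted p under 0.05), 0 by DESeq2 and 1 by limma voom. The smallest p was that of GA3, the ent-kaurene oxidase gene, at 96.0 ± 5.92 CPM in WT, against 113 ± 3.12 CPM in the libraries labelled mutant (log2 fold change 0.23; edgeR adjusted p = 0.0591), and without both replicates numbered 1 it was called (0.19; edgeR adjusted p = 0.00751). Of 6 further oxidase genes, 3 passed the filter and 0 were called by edgeR or DESeq2 (1 lower at an unadjusted p under 0.05, and 1 lower by limma voom). GA20OX5, whose enzyme carries out only part of the GA20ox reaction, stood at 0.927, 1.08 and 1.26 CPM in WT, against 0.911, 0.383 and 0.191 CPM in the libraries labelled mutant (log2 fold change −1.11, 95% interval −2.04 to −0.18; edgeR adjusted p = 0.141). Mutant-labelled replicate 1 lay close to WT, and without both replicates numbered 1 the gene was called (−2.03; edgeR adjusted p = 0.000853). GA2OX7 had no count in any library, and for each library this was read as an expected count of at most 3. Of 4 genes for other inactivation routes 0 were called by edgeR or DESeq2 (2 higher at an unadjusted p under 0.05, and 2 by limma voom). The closest was ELA2, a cytochrome P450 gene, at 10.3 ± 0.489 and 13.3 ± 1.57 CPM (log2 fold change 0.38; edgeR adjusted p = 0.0514, and 0.0679 without both replicates numbered 1). The methyltransferase genes GAMT1 and GAMT2, known from seeds, were not called, with 162 and 157 CPM in WT, against 180 and 159 CPM in the libraries labelled mutant. GAMT1 was called higher without both replicates numbered 1 (0.19; edgeR adjusted p = 0.00483).

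All 3 genes listed for transporters known to carry gibberellin were lower, against 4.07% of all genes tested. The list, chosen with earlier results of these data known, need not hold every such transporter. SWEET14, a sugar carrier gene that also moves gibberellin, stood at 12.4, 13.0 and 12.4 CPM in WT, against 3.12, 4.22 and 5.21 CPM in the libraries labelled mutant. These values are far apart, and 0.332 times the WT level remained (log2 fold change −1.59, SE 0.15; edgeR adjusted p = 3.2e-05). Its relative SWEET13 stood at 23.3, 24.2 and 23.7 CPM in WT, against 15.5, 14.7 and 17.3 CPM in the libraries labelled mutant, again without overlap (log2 fold change −0.58, SE 0.089; edgeR adjusted p = 0.00106). NPF3, a nitrate transporter family gene, fell from 83.0 ± 4.12 to 68.3 ± 0.604 CPM (log2 fold change −0.28; edgeR adjusted p = 0.0211). NPF3 overlaps a gene on the other strand by 988 bases, so its count is uncertain, and its call was lost when WT replicate 2 or 3 or mutant-labelled replicate 2 or 3 was left out (edgeR adjusted p = 0.0839 to 0.117).

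Of 3 receptor genes and 9 signalling genes, 0 were called by edgeR or DESeq2. At an unadjusted p under 0.05 edgeR counted 1 of each, GID1A and RGL3, and limma voom called 1 receptor gene and 2 signalling genes. GID1A, a receptor gene, stood at 22.0, 21.7 and 21.0 CPM in WT, against 25.9, 28.4 and 24.5 CPM in the libraries labelled mutant (log2 fold change 0.28, 95% interval 0.10 to 0.46; edgeR adjusted p = 0.0547). The DELLA gene RGL3 stood at 5.42 ± 0.695 and 7.23 ± 0.864 CPM (log2 fold change 0.41; edgeR adjusted p = 0.0986). Without both replicates numbered 1, GID1A (0.30; edgeR adjusted p = 0.00584) and RGL3 (0.53; edgeR adjusted p = 0.00662) were called. The DELLA genes GAI and RGA had log2 fold changes of −0.03 (95% interval −0.21 to 0.14) and 0.06 (−0.10 to 0.21).

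Among responsive genes, 2 of 9 rose and 0 fell, against 4.89% higher and 4.07% lower over all genes tested. The list was not sorted by whether gibberellin raises or lowers each gene, so these counts give no direction of a gibberellin response. GASA1, a gibberellin-induced gene for a small cysteine-rich protein, stood at 58.3, 51.2 and 54.3 CPM in WT, against 84.5, 99.2 and 94.4 CPM in the libraries labelled mutant. Every mutant-labelled library was well above every WT library (log2 fold change 0.76, SE 0.081; 1.70 times the WT level; edgeR adjusted p = 6.9e-05). GASA6, of the same family, rose from 40.2 ± 1.93 to 48.9 ± 1.52 CPM (log2 fold change 0.28; edgeR adjusted p = 0.0279) and overlaps a gene on the other strand by 206 bases. Its call was lost when any of the same 4 libraries was left out (edgeR adjusted p = 0.0873 to 0.131). GASA1 and GASA6 have short transcripts (760 and 910 bases), and shorter transcripts tended to be higher over the whole table. After the correction for transcript length their log2 fold changes were 0.67 and 0.21, and both were still called. At an unadjusted p under 0.05, 4 of the 9 were higher and 0 lower, a count that has no background to be read against. The others were GASA14 (0.45; edgeR adjusted p = 0.0986) and MYB65 (0.30; edgeR adjusted p = 0.164). Their groups did not overlap, as was the case for 25.9% of all genes tested. The remaining 5 had log2 fold changes from −0.06 (EXPA1) to 0.27 (PRE1) and were not called.

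Of 9 genes for proteins that act on the oxidase genes, 2 fell, against 4.07% of all genes tested. AHL25, listed in the reference as AGF1, encodes an AT-hook protein known to bind the GA3OX1 promoter in the feedback control of that gene. It stood at 11.2, 11.7 and 10.8 CPM in WT, against 7.10, 7.17 and 7.12 CPM in the libraries labelled mutant, a fall without overlap (log2 fold change −0.65, SE 0.10; edgeR adjusted p = 0.00129). ATH1, a BELL homeobox gene, stood at 6.98, 7.12 and 7.77 CPM in WT, against 5.95, 4.38 and 4.64 CPM in the libraries labelled mutant (log2 fold change −0.54; edgeR adjusted p = 0.0298), a call likewise lost when any 1 of those 4 libraries was left out (edgeR adjusted p = 0.0684 to 0.145). IND, the valve margin activator of GA3OX1, was not called, at 5.87 ± 0.819 and 7.33 ± 1.29 CPM (log2 fold change 0.31; edgeR adjusted p = 0.257, and 0.0146 with a log2 fold change of 0.49 without both replicates numbered 1), nor was FUS3, the seed regulator that represses gibberellin synthesis (−0.06; edgeR adjusted p = 0.674).

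**Figure D3:**
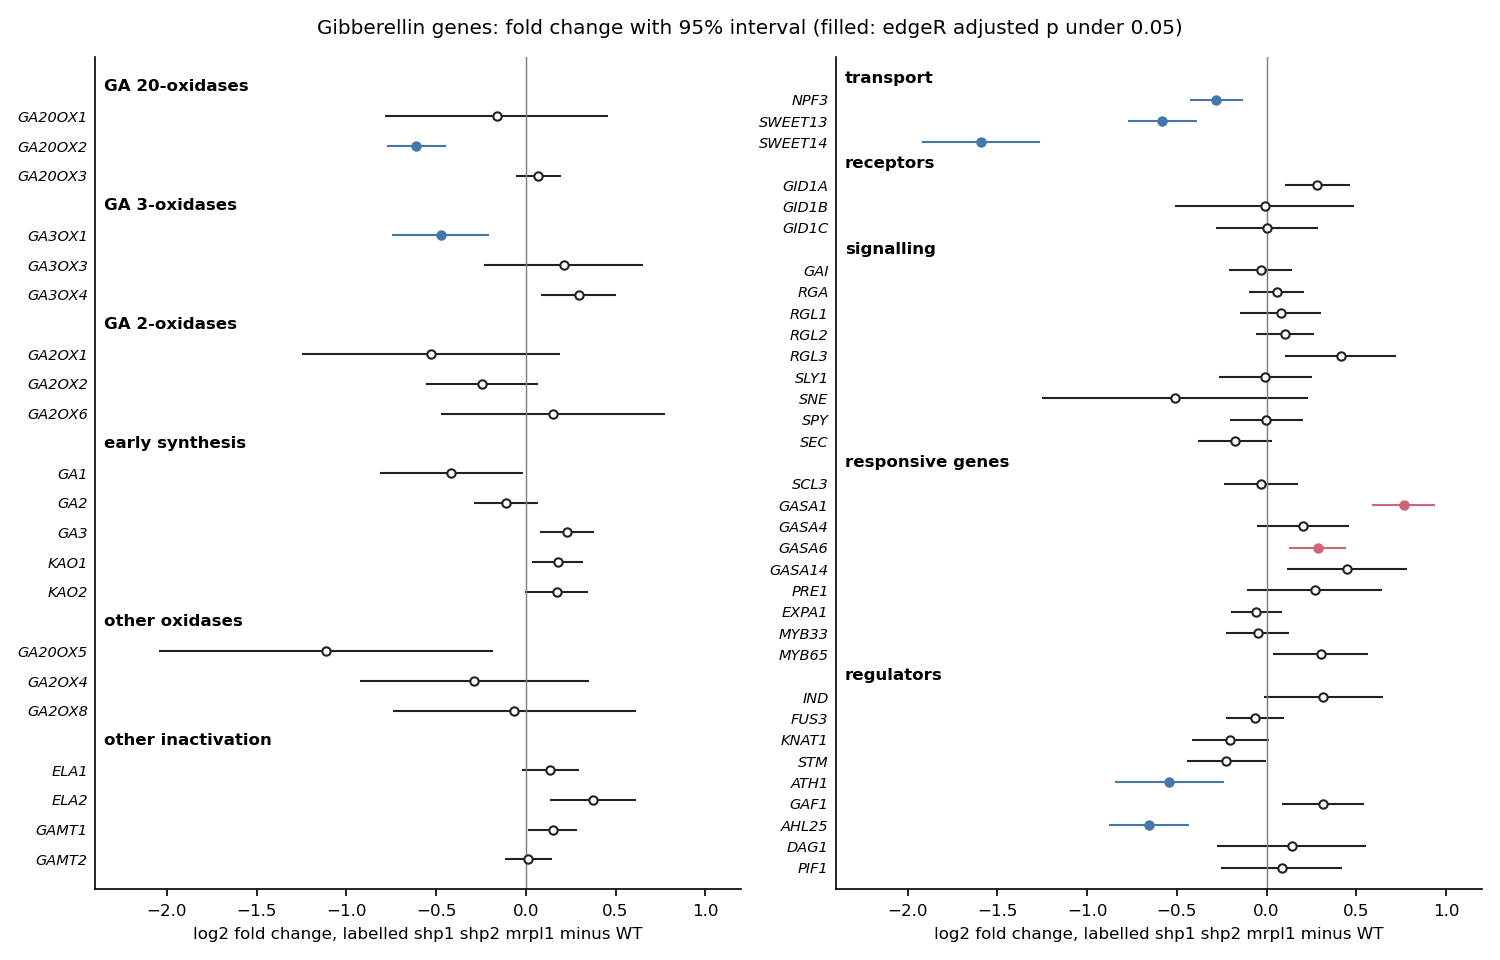
Log2 fold change of each tested gibberellin gene, libraries labelled shp1 shp2 mrpl1 minus WT, with its 95% interval from edgeR's quasi-likelihood fit. Filled symbols passed the adjusted threshold of 0.05, blue for lower and red for higher. Only GA20OX2 and GA3OX1 are filled among the oxidases, beside SWEET14, SWEET13, NPF3, AHL25 and ATH1 on the lower side and GASA1 and GASA6 on the higher side.

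Over all genes tested, edgeR called 4.07% lower and 4.89% higher. Of 5 embryo maturation genes 4 were lower, and their summed level was 118100 to 122200 CPM in WT, against 91050 to 100500 CPM in the libraries labelled mutant, with none of the 5 at 0. Of 9 fruit wall genes 3 were lower by edgeR, FUL, YAB3 and SHP1, itself in the labelled genotype (1 by DESeq2 and 4 by limma voom), while SHP2, ALC and RPL had log2 fold changes of −0.01, −0.02 and 0.02. The 9 fruit wall genes summed to 323 to 338 and 290 to 311 CPM, with none at 0. Of 5 endosperm genes 1 was higher (sums 3098 to 8443 and 5252 to 8845 CPM, nearly all of it from EPR1, with IKU2 and MINI3 under 10 counts), and of 4 seed coat genes 1 was higher (371 to 400 and 437 to 456 CPM, none at 0). Anther and pollen genes were low throughout, with sums of 8.83 to 11.4 and 13.8 to 17.6 CPM. The pollen gene VGD1, which shares 2.72% of its windows with AT2G47030, supplied most of that sum and was the 1 of 5 called higher, and the anther gene A9 had at most 1 count in any library. Without both replicates numbered 1, edgeR also called ABI3, FIL and EPR1 lower and IND and BAN higher, and no longer called SESA3 (edgeR adjusted p = 0.071). EPR1 changed sign there, from a log2 fold change of 0.10 with all libraries (edgeR adjusted p = 0.931) to −0.49. The part of these marker differences in the values of GA20OX2, GA3OX1 and the other gibberellin genes was not tested.

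The genes whose profile over the 6 libraries was nearest to that of GA20OX2, by root mean square difference of centred log2 CPM among 18151 genes whose average log2 CPM was 1 or more, were AT5G65530, a protein kinase gene (0.023), and AT1G78500, a terpenoid cyclase gene (0.025). Those nearest to GA3OX1 were the trehalose phosphate synthase family gene TPS8 (0.038) and ENODL9, for an early nodulin-like protein (0.045), which was itself not called (edgeR adjusted p = 0.269).

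GA20OX2 was called under all 15 alternative settings, with log2 fold changes from −0.65 to −0.57. GA3OX1 had the same sign in all 15, from −0.64 to −0.40, but its call held in 9. The 6 that lost it included the 4 fits with 1 library left out and the DESeq2 test (log2 fold change −0.48, adjusted p = 0.0516). Without both replicates numbered 1 the calls were again 2, and the GA3OX1 log2 fold change was −0.64 (edgeR adjusted p = 0.000192). GA3OX4 was called only by limma voom (0.28, adjusted p = 0.0463) and lay between 0.23 and 0.33 in all settings.

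**Figure D4:**
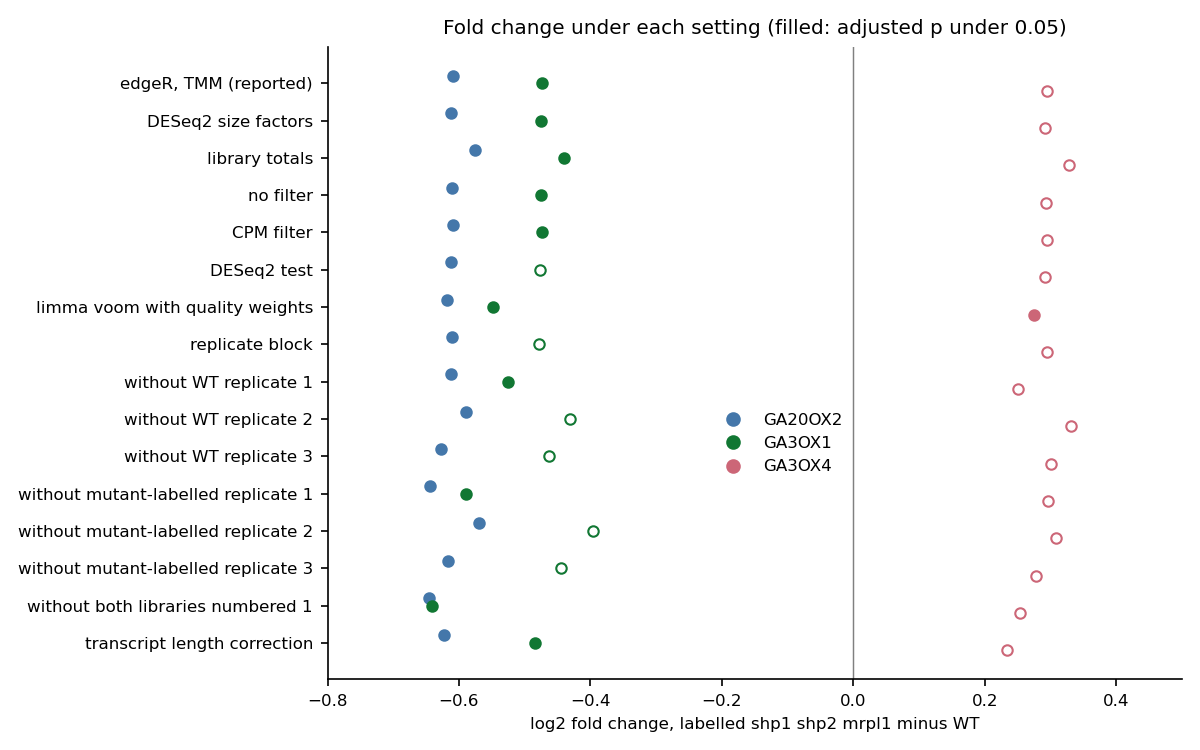
Log2 fold change of GA20OX2 (blue), GA3OX1 (green) and GA3OX4 (red) as reported and under each of the 15 alternatives, with filled symbols for an adjusted p under 0.05. GA20OX2 is filled throughout, GA3OX1 is open in 6 settings and GA3OX4 is filled in 1, while each gene keeps its side of 0.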

How the data were processed

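Siliques of 3 WT and 3 samples labelled shp1 shp2 mrpl1 were compared. The deposited table holds estimated counts per transcript identifier, and 2.95% to 3.47% of values per library were not whole (tolerance 1e-09). Per the submitters' processing notes, FastQC 0.11.9, Trimmomatic 0.39, HISAT2, DESeq2 and featureCounts 1.6.3 were used; no source used here gives the genome build, the annotation or the strand setting. Counts were rounded and fitted with edgeR 4.0.16 in R 4.3.3 over the whole table (TMM scaling, minimum count 10, minimum total count 15, robust quasi-likelihood test, genotype as the only term), with Benjamini-Hochberg adjustment over all genes tested. Standard errors were derived from the log2 fold change and the F statistic, and 95% intervals from the degrees of freedom of the fit. The fit was tested on simulated counts. Identifiers were matched to RefSeq TAIR10.1 (27419 of 27628), which gave symbols, positions, lengths and sequences.

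The members and gene lists were chosen with earlier results of these data known. The naming rule took all 10 oxidase genes, every called pathway gene and, in a list without a call, the gene with the smallest p; SHP1, SHP2, IND and the 2 nearest profiles of each called member were added by the same rule, and other genes are named to describe a list. Alternatives were DESeq2 size factors, library totals, no filter, a filter of CPM 1 in 3 libraries, the DESeq2 1.42.0 test, limma 3.58.1 voom with quality weights, the replicate number as a block, leaving out each library or both numbered 1, and an offset for transcript length. Counting error is the only error covered by a limit of 3 counts.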

Additional observations from a re-analysis of the deposited data

How the results depend on the processing

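Of the 2 oxidase genes called, 1, GA20OX2, was called in the DESeq2 test and with the replicate block (GA3OX1 adjusted p = 0.122 with the block). Leaving out 1 library at a time gave 1 to 2 calls, limma voom 3, and the other settings 2. The 7 calls among pathway genes became 16 with limma voom, 4 with the replicate block, 20 without both libraries numbered 1 and 14 after the correction for transcript length, and ranged from 4 to 10 with 1 library left out. SWEET13, SWEET14, GASA1 and AHL25 were called in all 15 alternatives. NPF3, GASA6 and ATH1 kept their direction in all 15 and were called in 10, the block and the same 4 left-out libraries as for GA3OX1 ending the call. Over the whole table the 1865 calls became 4123 with limma voom, 795 with the replicate block, 6492 without both libraries numbered 1 and 3304 after the length correction, and ranged from 1004 to 3002 with 1 library left out (1004 with mutant-labelled replicate 3 left out, 1216 with mutant-labelled replicate 2, 1084 and 1209 with WT replicates 3 and 2, 3002 with WT replicate 1). The cause was not tested. With library totals in place of TMM the higher share of all calls was 65.1%, against 54.6%. Among the 9 tested oxidase genes and the 7 called pathway genes, the sign turned for 2 low genes that no setting called: with 1 library left out, GA20OX1 ran from −0.28 to 0.025, turning when WT replicate 3 was left out, and GA2OX6 from −0.089 to 0.39, turning when mutant-labelled replicate 2 or WT replicate 1 (−0.06) was left out. Same-numbered libraries did not deviate from their group means in the same direction (correlations −0.364, −0.188 and −0.116). With 3 libraries per group these values depend on each other, and a shared batch was not tested. Depth limits GA20OX1, GA2OX1, GA2OX6, GA3OX3 and GA3OX2, whose libraries held at most 54 counts each.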
